A study of Mus musculus with 11 samples.

Results

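Cortex-only H3K27me3 peaks are stretches of the genome that were called as enriched for this histone mark in embryonic mouse cortex (CTX) and in none of the medial, caudal or lateral ganglionic eminences (MGE, CGE and LGE). They were chosen by overlap alone, as the CTX peaks on chromosomes 1 to 19 and X that share no base with any MGE, CGE or LGE peak. 4244 of 18785 CTX peaks met this rule, out of 70216 peaks in the 4 lists together. The mark was profiled by CUT&Tag, in which an antibody tethers a transposase to chromatin carrying the mark, on nuclei of microdissected tissue. All samples are wild-type C57BL/6J, with 3 samples per region except MGE, which has 2. Outside MGE, 2 samples of a region carry the same replicate number. The study describes a pair of biological replicates for every region, so samples with the same number are taken as a single replicate. The tissue was taken at E12.5, although the shared protocol in the labels also names E14.5. The cortex was dissected as somatosensory cortex, and the protocol also speaks of pooling equal numbers of nuclei across regions, while each sample is labelled with 1 region. Each region is represented by 1 list of broad peaks called on its merged samples, so that no spread between replicates can be given and all comparisons below are descriptions without a test. The lists hold no read counts, so the number of reads behind a peak is unknown. Sequencing depth differed between regions. Summed over the libraries, the depths given in the study's methods were largest for CGE, followed by CTX, LGE and MGE, which is also the order of the number of peaks in the lists, and the part of depth in the counts compared below was not tested.

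H3K27me3 is laid down by Polycomb repressive complex 2, whose catalytic subunit is usually Ezh2, and is read by Polycomb repressive complex 1. In development it covers the promoters and often the whole bodies of silent genes for transcription factors and signalling molecules, many of which start in CpG islands, and it is removed or kept as cells choose their fate. In the telencephalon the dorsal cortex gives rise to glutamatergic neurons and the ganglionic eminences to GABAergic neurons, and genes of the opposite fate are classical carriers of the mark.

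Stretches of 300 bases from 5 cortex-only peaks and 1 shared CTX peak show what kind of sequence the mark lay on. They were read from the plus strand of GRCm38, as the central bases of the peak or the nearest stretch free of annotated untranslated regions, and CpG dinucleotides are in capitals. The widest cortex-only peak, between genes with the start of Uck2 nearest (chr1:167193052-167193351), stands for the extreme of width. The strongest peaks of Kirrel3 (chr9:34961712-34962011), Meis1 (chr11:18911363-18911662) and Tox (chr4:6918620-6918919) stand for introns of genes with several cortex-only peaks. The peak at the start of Ric3 is the strongest of the gene-start peaks with a CpG-rich centre. Its stretch (chr7:109082981-109083280) lies just inside the gene and to the side of the peak's centre, and does not hold the gene start itself. The strongest shared peak of Meis1 (chr11:19008850-19009149) is given for comparison.
Widest peak: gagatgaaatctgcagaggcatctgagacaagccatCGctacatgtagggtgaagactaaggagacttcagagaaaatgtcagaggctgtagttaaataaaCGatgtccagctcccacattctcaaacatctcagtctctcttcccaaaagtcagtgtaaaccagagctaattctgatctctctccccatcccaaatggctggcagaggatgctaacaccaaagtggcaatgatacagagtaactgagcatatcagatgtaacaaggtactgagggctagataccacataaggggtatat
Kirrel3 intron: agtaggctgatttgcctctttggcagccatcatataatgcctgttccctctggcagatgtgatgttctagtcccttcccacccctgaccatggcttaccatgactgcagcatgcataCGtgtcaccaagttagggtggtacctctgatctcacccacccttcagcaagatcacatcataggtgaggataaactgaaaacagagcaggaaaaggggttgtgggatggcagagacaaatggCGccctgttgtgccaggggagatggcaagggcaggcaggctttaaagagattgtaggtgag
Meis1 intron: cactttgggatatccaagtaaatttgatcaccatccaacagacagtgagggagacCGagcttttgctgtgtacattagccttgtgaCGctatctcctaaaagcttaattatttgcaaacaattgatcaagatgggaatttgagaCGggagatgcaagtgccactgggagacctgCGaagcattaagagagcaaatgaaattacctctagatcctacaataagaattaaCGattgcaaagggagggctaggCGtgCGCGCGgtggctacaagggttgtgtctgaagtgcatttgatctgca
Tox intron: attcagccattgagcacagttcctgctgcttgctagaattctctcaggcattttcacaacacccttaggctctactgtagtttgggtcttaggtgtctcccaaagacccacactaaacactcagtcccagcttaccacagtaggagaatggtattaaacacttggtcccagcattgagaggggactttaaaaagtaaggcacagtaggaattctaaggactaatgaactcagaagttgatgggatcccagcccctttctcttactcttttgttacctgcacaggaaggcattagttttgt
Ric3 gene start: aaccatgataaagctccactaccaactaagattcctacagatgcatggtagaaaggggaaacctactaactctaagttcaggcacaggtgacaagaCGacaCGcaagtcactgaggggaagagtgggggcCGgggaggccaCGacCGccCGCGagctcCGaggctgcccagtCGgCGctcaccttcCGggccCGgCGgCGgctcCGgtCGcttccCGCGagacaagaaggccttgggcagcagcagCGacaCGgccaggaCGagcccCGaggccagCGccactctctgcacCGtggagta
Meis1 shared peak: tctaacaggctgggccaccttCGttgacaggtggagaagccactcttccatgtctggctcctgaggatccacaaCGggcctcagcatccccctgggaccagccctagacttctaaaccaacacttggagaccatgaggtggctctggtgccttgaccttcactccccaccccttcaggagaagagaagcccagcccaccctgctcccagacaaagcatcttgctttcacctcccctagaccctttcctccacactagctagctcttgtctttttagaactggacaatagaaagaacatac
The Ric3 stretch held 24 CpG dinucleotides and 63.0% G+C. The other 4 cortex-only stretches held between 0 CpG in Tox and 9 in Meis1, with 44.3% to 51.3% G+C, and the shared Meis1 stretch held 2.

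The cortex list had the highest share of peaks without a counterpart. 22.6% of CTX peaks shared no base with another list, against 13.2% of MGE peaks (2026 of 15384), 16.6% of CGE peaks (3181 of 19196) and 9.22% of LGE peaks (1554 of 16851). CTX also had the highest share with lists limited to an equal number of strong peaks (19.4%, next MGE at 16.9%). The same held with a q-value under 0.001 in all lists (18.8%, next CGE at 16.2%). It did not hold in lists of equal covered length, a setting that changes the strength of the peaks kept as well as the cover. With the weaker peaks of CTX, CGE and LGE left out until all lists covered equal lengths, that of the MGE list, 14.5% of CTX peaks (1671) and 23.3% of MGE peaks (3592) were found in 1 list, and 394 and 218 of these were 2 kb or wider. Of the shared CTX peaks, 9722 touched all 3 eminence lists, 1104 touched CGE and no other list, 809 LGE alone and 338 MGE alone. CTX peaks with a counterpart in a single other list thus had it most often in CGE, the longest list.

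Most cortex-only peaks were narrow and weak beside shared CTX peaks, with a minority of wide ones. Their median width was 636 bases (quartiles 415 and 1252, range 307 to 6703), against 1606 bases for the 14541 shared CTX peaks. 420 of them (9.90%) were 2 kb or wider, against 38.3% of shared CTX peaks, 4.39% of MGE-only, 3.62% of CGE-only and 0.965% of LGE-only peaks. Together they covered 4.04 Mb, and the shared CTX peaks 27.1 Mb. Strength is given as the −log10 of the q-value that the peak caller assigned, on merged reads. Its median was 1.95 in cortex-only peaks and 5.29 in shared CTX peaks, and the median fold enrichment over background was 2.56 and 2.82. With CTX peaks ranked by strength in 5 equal groups, cortex-only peaks made up 0.293% of the strongest group (11 peaks), 7.77% of the next (292), 21.6% (811), 33.7% (1267) and 49.6% of the weakest (1863). A strong tail remained, with 1035 cortex-only peaks at a −log10 q of 3 or more and 67 at 10 or more, where MGE-only, CGE-only and LGE-only peaks numbered 4, 5 and 3. Neither width nor strength is independent of the overlap rule.

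**Figure D1:**
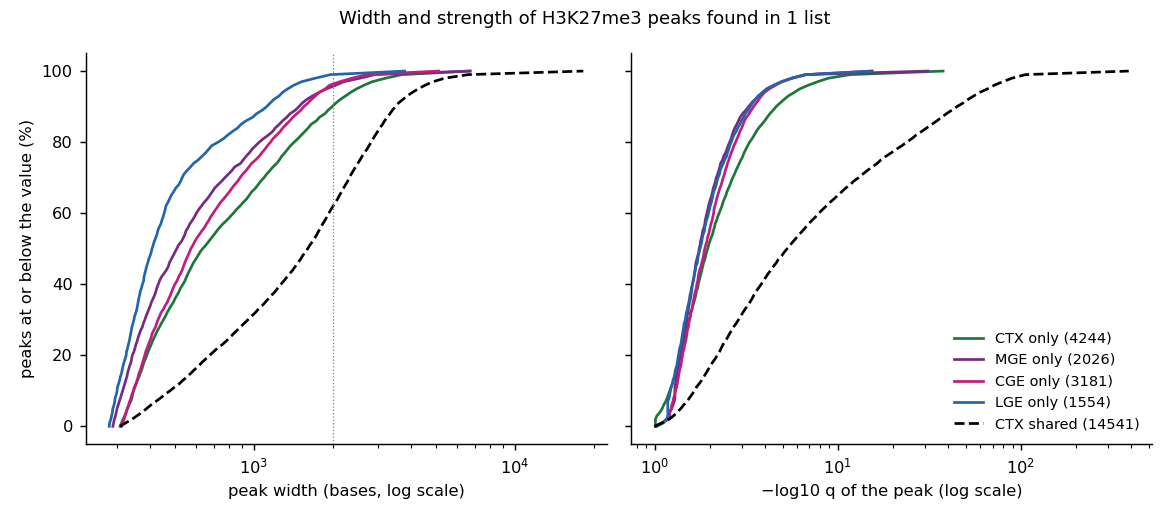
Cumulative share of peaks (%) against peak width in bases (left, the dotted line at 2 kb) and −log10 q (right), both on log axes, for the peaks found in 1 list only and the shared CTX peaks, with the number of peaks in brackets. The cortex-only curve lies to the right of the 3 eminence-only curves at widths above 1 kb and to the left of the shared CTX peaks throughout.

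Membership turned on few bases for few peaks. The nearest peaks just inside the rule lay 1, 1, 5, 6 and 6 bases from an eminence peak, and those just outside shared 1, 2, 4, 4 and 4 bases. 21 cortex-only peaks lay under 100 bases from another list, and 81 CTX peaks were left out for sharing 1 to 100 bases. The rest were spread over a wide range of distances. The median gap to the nearest eminence peak was 17.3 kb (quartiles 4.95 and 61.3 kb), with 132 peaks (3.11%) within 1 kb, 1675 (39.5%) within 10 kb and 702 (16.5%) farther than 100 kb, up to 2.14 Mb. For each list alone the median gap was 26.7 kb to CGE, 28.5 kb to LGE and 38.0 kb to MGE, in the reverse order of the number of peaks in those lists, and CGE held the nearest peak in 48.3% of cases. 393 cortex-only peaks (9.26%) had an eminence peak within 10 kb on both sides, 1282 (30.2%) on 1 side and 2569 (60.5%) on neither. The nearest shared CTX peak was at a median of 27.1 kb.

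Cortex-only peaks lay mainly in introns and between genes, and farther from gene starts than shared CTX peaks. Each peak was placed in the first class it touched, of gene start, promoter (2 kb upstream of the start of a protein-coding gene), exon, intron and intergenic sequence. All classes refer to protein-coding genes alone, so intergenic sequence can hold genes of other types. 48.7% of cortex-only peaks were intergenic and 30.1% intronic, against 31.0% and 16.3% of shared CTX peaks. Only 7.66% held a gene start, against 29.7%, and 10.1% touched a promoter, against 33.3%. Of the genome, 39.4% lies in bodies of protein-coding genes and 1.62% in their promoters, and 49.4% of cortex-only peaks touched a gene body. A share of peaks that touch a class is a different measure from a share of bases. The median distance to a gene start was 57.4 kb in cortex-only and 7.67 kb in shared CTX peaks, and 53.0% and 24.9% lay 50 kb or more away. MGE-only, CGE-only and LGE-only peaks were placed much like cortex-only peaks near promoters (9.08%, 6.79% and 11.3% touching one), while 48.1%, 42.2% and 41.1% lay 50 kb or more from a gene start. The 420 cortex-only peaks of 2 kb or more were farther from gene starts than the set as a whole, with 54.8% intergenic, 2.86% touching a promoter and 69.3% at 50 kb or more.

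**Figure D2:**
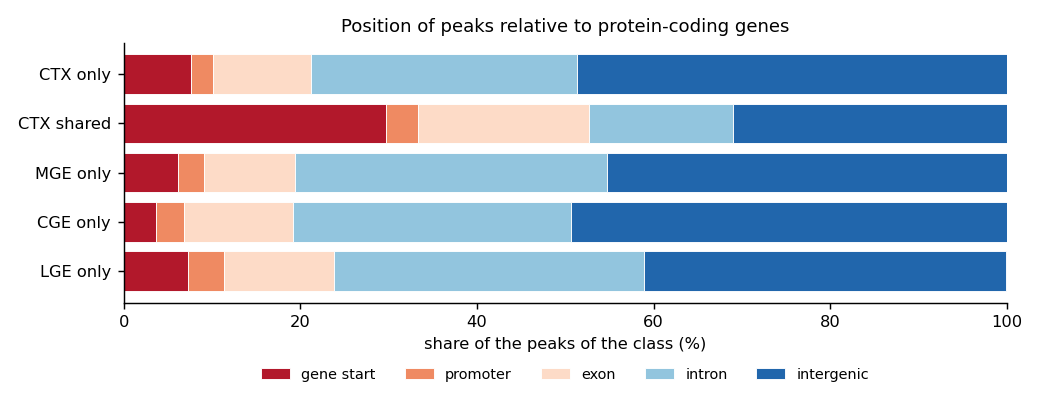
Share of peaks (%) in each position class relative to protein-coding genes, for cortex-only peaks, shared CTX peaks and the peaks found in 1 eminence list only. Gene starts take 7.66% of cortex-only and 29.7% of shared CTX peaks, and the blue intron and intergenic parts make up most of every bar for peaks found in 1 list.

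The distal placing was also seen among peaks of like width and of like strength. Among peaks of 1 to 2 kb, 5.53% of 994 cortex-only and 28.7% of 4375 shared CTX peaks touched a promoter, and 61.9% and 26.1% lay 50 kb or more from a gene start. Peaks of that width found in 1 eminence list only also lay far from gene starts, with 57.6% of MGE-only, 51.4% of LGE-only and 44.2% of CGE-only peaks at 50 kb or more and 5.73%, 7.65% and 7.80% touching a promoter. In each of the 5 strength groups the share at 50 kb or more was higher in cortex-only peaks. It was 69.5% against 29.2% in the second strongest group and 45.4% against 30.8% in the weakest. The strongest group held only 11 cortex-only peaks.

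**Figure D3:**
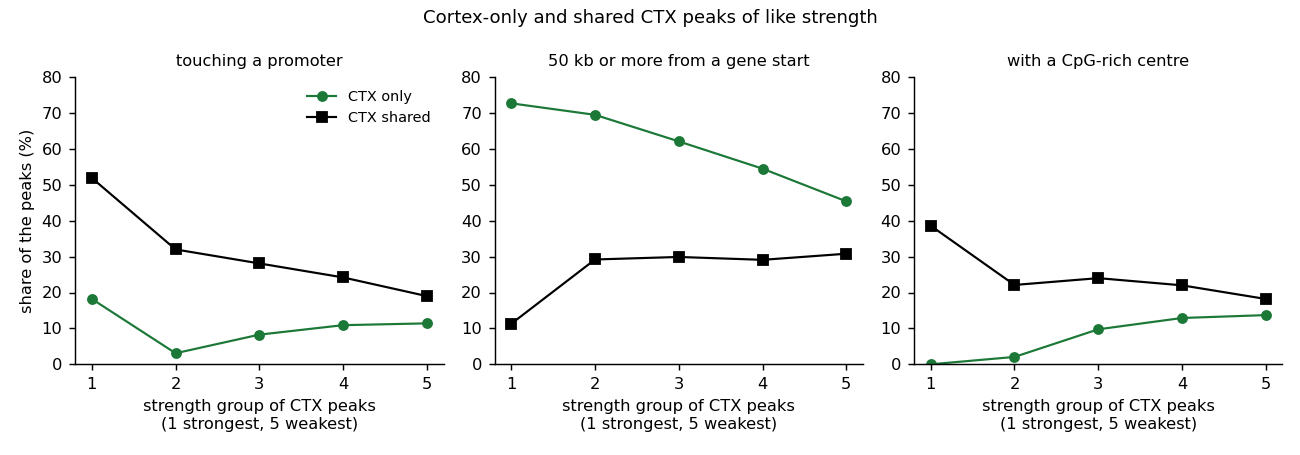
Share of cortex-only (green circles) and shared (black squares) CTX peaks that touch a promoter, lie 50 kb or more from a gene start or have a CpG-rich centre, in 5 groups of CTX peaks ranked by strength from 1 (strongest) to 5. Green lies below black in the left and right panels and above it in the middle panel in every group, with 11 cortex-only peaks in group 1.

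The sequence under cortex-only peaks was poorer in CpG than that under shared peaks, but not at gene starts. Median G+C was 48.9% in cortex-only and 53.6% in shared CTX peaks, against 41.8% genome-wide, and the median ratio of observed to expected CpG was 0.212 and 0.388, against 0.191. A CpG-rich centre, meaning 300 central bases with at least 50% G+C and a CpG ratio of 0.6, was found in 11.9% of cortex-only and 26.2% of shared CTX peaks, and in 48.0% of windows of the same length on gene starts. At gene starts 82.8% of the 325 cortex-only peaks and 53.8% of the 4318 shared peaks had a CpG-rich centre, at other promoter peaks 32.4% and 27.6%, and in exons 33.0% and 32.2%. In introns it was 1.33% and 4.69%, and between genes 1.36% and 7.18%. The gene-start peaks of the cortex-only set were short and weak, with a median width of 500 bases and −log10 q of 1.83, against 2062 bases and 11.4 in shared ones. The cortex-only peak of Ric3, printed above, had 768 bases and 8.71. In wider peaks the 300 central bases can lie farther from the gene start. The part of width in the CpG shares at gene starts was not tested. Repeats marked in the genome sequence took a median 11.3% of a cortex-only peak and 9.98% of a shared one.

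At gene starts and promoters, cortex-only peaks touched the promoters of 490 of 21755 protein-coding genes (2.25%), and the starts of 367 genes lay inside one. In 474 of the 490 no eminence peak covered any base of the promoter. The overlap rule favours this, as no eminence peak can lie under the touching peak. The share of all promoters free of eminence peaks was not counted. The cover by CTX peaks was slight, with a median of 15.3% of the 2 kb and 18 promoters covered by 50% or more. The strongest were at Lrrc9, a leucine-rich repeat gene (−log10 q of 24.9, 2073 bases), and at Scml4, a relative of the Polycomb gene Scm (20.7, 980 bases). Lrrc9 had 1 CGE peak elsewhere in the gene. Scml4 had 1 MGE, 3 CGE and 3 LGE peaks in its body or promoter, and the CGE peak nearest to the cortex-only one was 3162 bases away. Gm11733, a predicted gene, followed at 13.3, with 37.2% of its body and promoter covered in CTX and 0 in the other lists.

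Next came Ric3, a chaperone of nicotinic acetylcholine receptors, at 8.71 and AW551984 at 6.69. Serpinb3b and Serpinb3c, neighbouring genes for protease inhibitors, shared a single peak at 6.15. Serpinb3b is annotated over 124 kb in GENCODE and 7.15 kb in RefSeq, so the link of this peak to its promoter depends on the gene model. Fam168a followed at 6.09, and Nenf, which encodes the secreted protein neudesin, at 6.05. These 6 genes had 1 or 2 CTX peaks each, which covered between 0.235% of gene body and promoter in Fam168a and 9.98% in AW551984, and none had an MGE, CGE or LGE peak there.

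Genes with several cortex-only peaks were long. 1649 protein-coding genes (7.58%) held at least 1 in the gene body or the 2 kb upstream, 309 (1.42%) at least 2, 150 at least 3 and 45 at least 5. At least 1 MGE-only, CGE-only or LGE-only peak was found in 4.31%, 5.66% and 3.83% of genes, and at least 2 in 150, 244 and 95 genes. The genes with 2 or more cortex-only peaks had a median length of 238 kb, those with 1 of 42.7 kb, and all genes of 17.4 kb. A longer gene has room for more peaks of any kind, and the part of gene length in these counts was not tested. In 130 of the 150 genes with 3 or more, CTX peaks covered a larger part of the gene than the peaks of any eminence list, with medians of 3.62% in CTX, 1.02% in MGE, 1.74% in CGE and 1.24% in LGE. These genes were chosen for their CTX peaks, so the higher CTX cover is a description. In 728 of the 1649 genes (44.1%) no eminence peak touched the gene at all, among them 29 with 2 or more cortex-only peaks. The 1649 genes were also chosen by the overlap rule, and the share of all genes free of eminence peaks was not counted.

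By count, Gm20388 led with 33 and Fgfr2, a receptor for fibroblast growth factors, held 13, but both counts rest on their gene models. Gm20388 is annotated over 4435 kb and spans many other genes. Fgfr2 is annotated over 2961 kb in GENCODE and 104 kb in RefSeq, and the RefSeq span held 0 cortex-only peaks. Grid1, the glutamate receptor delta subunit 1, held 16 in 763 kb. All 16 lay in introns, 88.8 to 557 kb from the gene start, with widths of 417 to 3200 bases and a −log10 q of at most 4.29. CTX had 24 peaks in Grid1 in all, MGE 3, CGE 2 and LGE 8, covering 5.26%, 0.533%, 0.709% and 1.80% of the gene and its promoter.

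Next by count was Zfhx3, a zinc finger homeobox transcription factor, which held 12 (10 in its RefSeq span), with cover of 6.82% in CTX, 3.80% in MGE, 4.06% in CGE and 2.07% in LGE. Ptprn2, a receptor-type phosphatase of secretory vesicles, held 11, with 6.64%, 0.401%, 1.40% and 2.78%. Camta1, a calmodulin-binding transcription activator, held 10, but CGE peaks covered more of it (3.08%) than CTX peaks (2.43%). Gse1, a coiled-coil gene lying inside the Gm20388 model, held 10, with 10.9% cover in CTX and 2.59% to 5.09% in the eminences. Fam19a1, which encodes a small secreted protein, held 9, with 3.49% in CTX and 0.264% to 0.663% elsewhere. Peaks found in 1 eminence list only also lay in these genes. In the order MGE-only, CGE-only and LGE-only, Zfhx3 held 4, 2 and 0, Ptprn2 1, 0 and 0 and Camta1 0, 10 and 3. Gse1 held 0, 5 and 2, and Fam19a1 0, 1 and 0.

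Kirrel3, an adhesion molecule of the immunoglobulin family found at synapses, held 9 cortex-only peaks, 3 of them 2 kb or wider. It also held 4 MGE-only, 0 CGE-only and 0 LGE-only peaks. Near its start all 4 lists had a peak of several kb, whereas 6 cortex-only peaks formed a row from 474 to 532 kb downstream. The row included peaks of 4717 and 5608 bases at −log10 q of 12.9 and 2.94, the former being the Kirrel3 stretch printed above. Cover was 5.91% in CTX, 2.84% in MGE, 1.81% in CGE and 1.96% in LGE.

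Lingo1, a leucine-rich repeat partner of the Nogo receptor, showed the same layout on a smaller scale. All lists had peaks at the gene start, around 174 to 177 kb and around 61 to 63 kb, and 7 of its 9 cortex-only peaks lay between 68.9 and 122 kb, a stretch with no eminence peak. Cover of Lingo1 was 21.5% in CTX and 10.3%, 9.48% and 9.07% in MGE, CGE and LGE. Tox, an HMG-box transcription factor, held 8, of which 6 lay together over 31.5 kb. CTX covered 4.87% of Tox, and MGE, CGE and LGE 0.228%, 0.343% and 0.370%, most of it under a shared peak near the start. Tox, Prdm1, Sez6, Nell2 and Nrcam fell outside the naming rule and were picked after their values were seen, as were genes named below only as the nearest to a strong peak or a row of peaks.

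Edar, the receptor for ectodysplasin, held 6 cortex-only peaks in 74.9 kb, 3 of them of 2965, 4699 and 4804 bases. Its cover was 27% in CTX, 2.85% in MGE, 8.07% in CGE and 8.54% in LGE. The eminence lists shared a peak at about 22.8 to 24.4 kb from the gene start that CTX lacked, between 2 of the wide cortex-only peaks, the nearer of which was 1099 bases away. Prdm1, a zinc finger repressor, also held 6, with 21.8% cover in CTX and 9.63%, 10.7% and 10.6% in MGE, CGE and LGE. Sez6, a membrane protein of dendrites, held 3 in 48.2 kb, and its cover was 39.6% in CTX and 9.51%, 7.63% and 12.8% elsewhere. Nell2, a secreted ligand of Robo receptors, held 7 in its GENCODE and 4 in its RefSeq span, with 3.34% cover in CTX and 0.134%, 0 and 0.0863% in MGE, CGE and LGE.

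**Figure D4:**
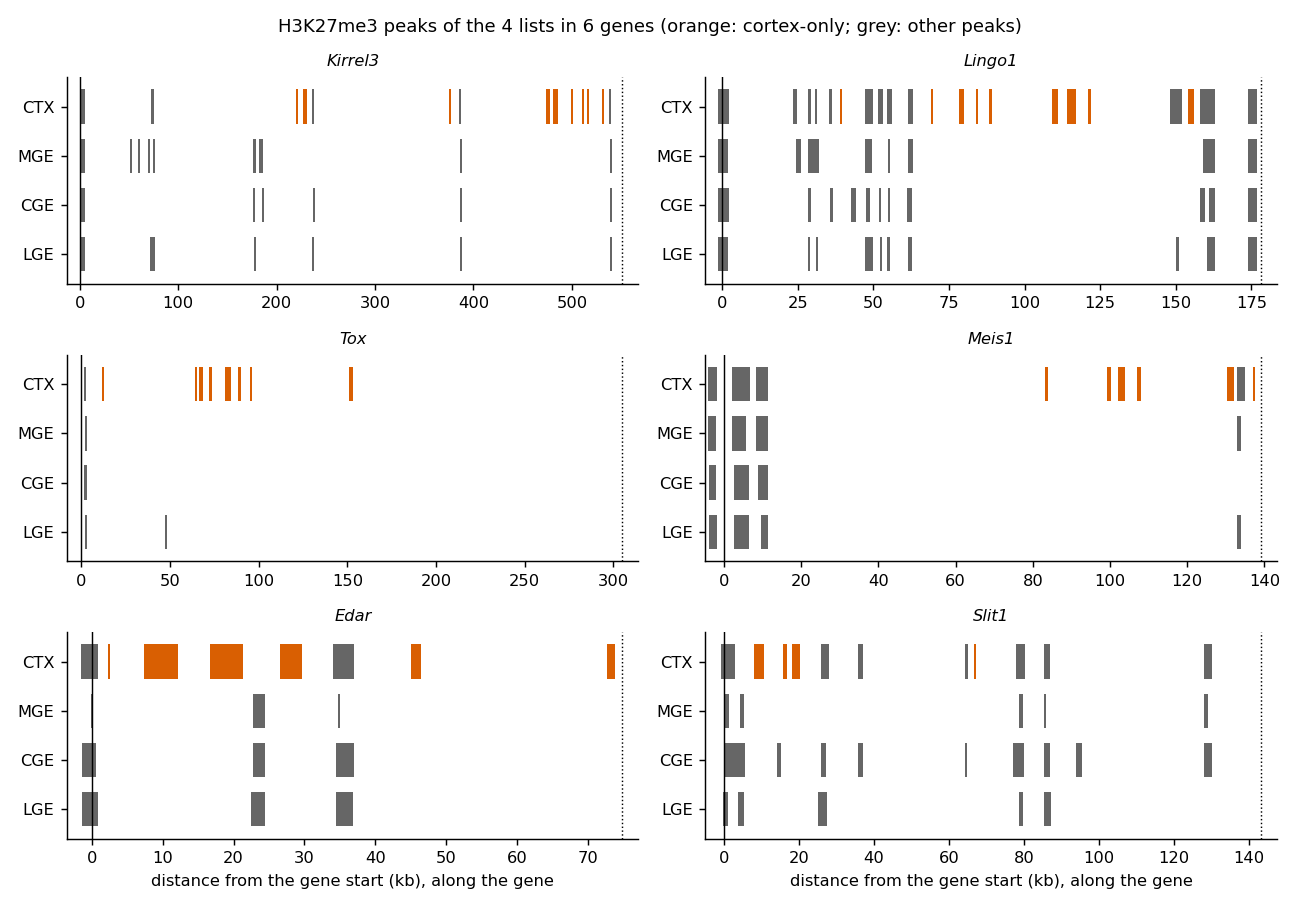
Positions of all H3K27me3 peaks of the 4 lists in Kirrel3, Lingo1, Tox, Meis1, Edar and Slit1, as distance in kb from the gene start (solid line) along the gene to its end (dotted line); orange boxes are cortex-only peaks, grey boxes all others, and narrow peaks are widened to 0.4% of the gene to be visible. In Kirrel3, Lingo1, Tox and Meis1 the orange boxes stand in rows inside the gene, away from the grey boxes that the lists share near the start.

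**Figure D5:**
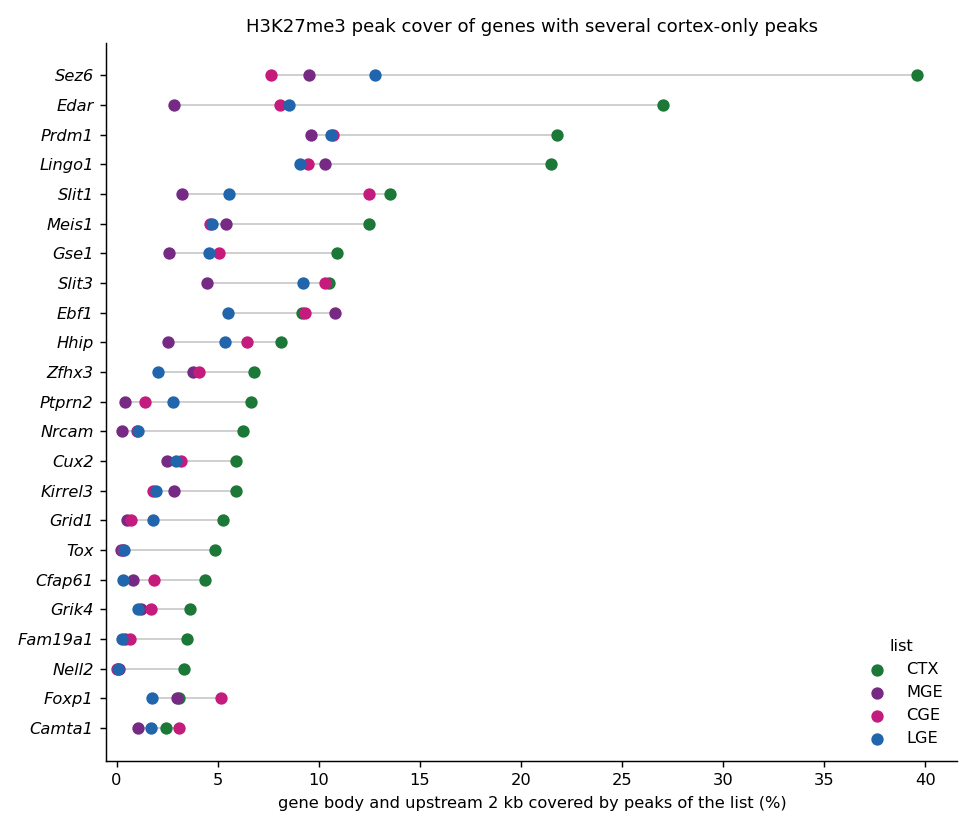
Share (%) of the gene body and its upstream 2 kb covered by peaks of each list, 1 dot per list, for 23 genes with 3 or more cortex-only peaks that are named in the report. Gm20388 and Fgfr2 are left out for their gene models, and Hdx, Sik3 and Fam50b, named only at the end, are not shown. The CTX dot is the rightmost in 20 of the 23, such as Sez6 with 39.6% against at most 12.8%, and CGE or MGE lies beyond it in Camta1, Foxp1 and Ebf1.

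The widest cortex-only peaks were not the strongest. The widest of all, 6703 bases, had a −log10 q of 1.96 and lay 88767 bases from the start of Uck2, a uridine-cytidine kinase. Next were 6626 bases in an intron of 1700025G04Rik (5.44), 6487 bases near Spock1, a proteoglycan (2.96), and 5874 bases 178229 bases from Ly86 (9.67). Kirrel3 had the fifth widest and another of the top 10, Edar had 4804 bases, and the rest were in Zfp277 (5046), near 4930469K13Rik (5044) and in Cfap61 (4853). By strength the leading peak was that of Slit1, with a −log10 q of 37.6 over 2697 bases in an intron 8007 bases from the gene start. It lay 2366 bases from a CGE peak that ran from 0.0760 to 5.64 kb downstream of the start of Slit1. The nearest LGE and MGE peaks were 2461 and 2546 bases away, so its place in the set rests on a short gap. Of the 10 strongest, 6 lay outside protein-coding genes and their promoters, such as those whose nearest gene starts were Aldh1b1 (27.1, 2865 bases), Thy1 (25.1) and Topaz1 (24).

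Cortex-only peaks also formed rows. Counting neighbours less than 20 kb apart with no eminence peak between, 602 rows of 2 or more held 1432 peaks (33.7%), and 15 rows held 5 or more. The row with most members had 8 peaks over 48.6 kb on chromosome 7 (chr7:114900321-114948908), outside any protein-coding gene and 156627 bases from Insc. Another of 7 peaks spanned chr4:45654541-45719074, 64.5 kb, with a strongest value of 27.1. The rows in Lingo1 (7), Kirrel3, Gse1 and Tox (6 each) were the next by size. A row of 5 peaks lay at chr7:70046400-70087154, and the nearest gene start was Nr2f2, a transcription factor of caudal eminence cells, 279581 bases away. Nr2f2 itself was covered in all lists, by 36.4% in CTX, 39.9% in MGE, 24.4% in CGE and 36.9% in LGE, and held no cortex-only peak.

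Most genes that set apart the ventral and dorsal telencephalon held no cortex-only peak, although nearly all of them carried the mark. Of 34 factors of ventral fate, all had a CTX peak and 7 (20.6%) a cortex-only one, above the 7.58% of all genes and beside 17.6%, 17.6% and 11.8% with an MGE-only, CGE-only or LGE-only peak. Meis1, a homeobox cofactor, had 6, the strongest at −log10 q of 14.4 over 820 bases, and cover of 12.5% in CTX, 5.40% in MGE, 4.62% in CGE and 4.71% in LGE. Its peaks around the gene start were shared by all lists, and 4 of the 6 cortex-only peaks lay 83.1 to 108 kb downstream. Foxp1 held 5 (best 5.12), but CGE covered more of it (5.15%) than CTX (3.07%), and it also held 7 CGE-only peaks and 1 MGE-only peak. Ebf1 held 3, Foxp2 2 and Maf 1, all with a −log10 q of at most 2.73. Of 25 pallial factors, 2 (8.0%) had cortex-only peaks, against 16% with MGE-only, 12% with CGE-only and 4.00% with LGE-only peaks. They were Cux2, a factor of upper cortical layers, with 6 and cover of 5.93% in CTX and 2.49% to 3.21% elsewhere, and Mef2c with 2.

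None of the marker genes of cortex (7) or ganglionic eminences (8) held a cortex-only peak, and their cover checked the region labels only in part. In 4 of the 7 cortex markers CTX had the lowest cover of the 4 lists. Emx1 was covered by 28.7% in CTX and 47.6% to 48.3% in the eminences, and Emx2 by 14.2% in CTX and 52.0%, 22.4% and 19.1% in MGE, CGE and LGE. Lhx2 was covered by 16.9% in CTX and 38.7%, 32.9% and 18.6% in MGE, CGE and LGE, and Neurog2 by 46.2% and 82.7%, 82.3% and 56.4%. Tbr1 was covered by 53.8% in CTX, below MGE (66.1%) and CGE (65.1%) and above LGE (40.9%). Eomes was covered by 53.8% in CTX, below MGE (55.3%) and above CGE (52.8%) and LGE (51.5%). In 4 of the 8 eminence markers CTX had the highest cover. The lead was slight in Gad1 (18.1% against at most 17.8%), Gsx2 (84.4% against at most 84.1%) and Dlx2, and larger in Lhx8 (25.2% against at most 20.7%). Lhx6 and Dlx5 were covered most in CGE (55.3% and 69.1%, against 52.8% and 68.8% in CTX). Dlx2 was covered by 40.7% in CTX, 12.3% in MGE, 40.4% in CGE and 39.4% in LGE, and Nkx2-1 by 83.4% to 84.5% in all lists, MGE included. Markers of other cells of the tissue, such as Pecam1 and Cdh5 of endothelium and Aif1 of microglia, had no CTX peak. The other 3 of 6, Pdgfra, Col1a1 and Cx3cr1, were covered alike in all lists within 8.28% to 8.68%, 22.8% to 23.4% and 2.67% to 4.10%, none of the 6 held a cortex-only peak, and the part of other cell types in the cortex-only peaks was not tested.

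Signalling and Polycomb genes gave small counts. In the Sonic hedgehog pathway, which patterns the ventral telencephalon, 5 of 16 genes (31.2%) had a cortex-only peak, against 37.5% with an MGE-only, 31.2% with a CGE-only and 0% with an LGE-only peak. Of all genes 7.58% had a cortex-only peak, and the median length of the 16 genes was 70.4 kb, against 17.4 kb. The ligand-binding inhibitor Hhip had 3 (best 4.37), with cover of 8.12% in CTX, 2.55% in MGE, 6.45% in CGE and 5.37% in LGE. Hhip also held CGE-only peaks from 6.14, 8.27 and 30.4 kb and an MGE-only peak from 25.7 kb downstream of its start. The receptor Ptch1 had 1, with cover of 19.1% in CTX, 4.36% in MGE, 14.1% in CGE and 16.6% in LGE. The co-receptor Boc had 1 with a −log10 q of 1.75, and its cover was 9.74% in MGE and 1.31% in CTX. Of 24 Polycomb genes, 3 (12.5%) had a cortex-only peak, against 4.17% with an MGE-only, 12.5% with a CGE-only and 4.17% with an LGE-only peak. The cortex-only share of all genes was 7.58%. The 3 were Pcgf3, Ezh2 and Pcgf1, each with a single cortex-only peak of −log10 q 2.09 to 3.03. That of Ezh2 was 367 bases long and spanned the gene start, reaching 0.278 kb into the gene, and no eminence peak touched the gene.

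Shares above the 7.58% of all genes were also found among genes of axon guidance and neurotransmitter reception, whose median lengths were above that of all genes. Of 70 axon guidance genes, 18 (25.7%) had a cortex-only peak, against 15.7%, 21.4% and 15.7% with an MGE-only, CGE-only or LGE-only peak, and their median length was 51.5 kb, above the 17.4 kb of all genes. Beside Slit1 with 4, they included the ligand Slit3 with 4 and Sema6d, Plxna4 and the netrin receptor Unc5b with 1 or 2. Slit1 was covered by 13.5% in CTX, 12.5% in CGE, 5.58% in LGE and 3.22% in MGE. Of 106 neurotransmitter receptor genes, of median length 31.0 kb, 15 (14.2%) had a cortex-only peak, against 4.72%, 6.60% and 6.60%. The kainate receptor subunit Grik4 had 8 peaks, with 3.61% cover in CTX and 1.22%, 1.72% and 1.06% in MGE, CGE and LGE. The glycine receptor subunit Glra3 (1 peak of 2045 bases, 5.38), the nicotinic subunit Chrna7 (3.86), the AMPA subunit Gria4 (3.16) and the metabotropic receptor Grm8 (2340 bases, 3.05) had 1 each.

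Of 93 potassium channel genes, of median length 32.0 kb against 17.4 kb of all genes, 12 (12.9%) had a cortex-only peak, against 7.53%, 10.8% and 8.60%. Kcnma1 had 1 of 3429 bases at a −log10 q of 5.01, and Kcnq1 1 at 5.51. Of 40 calcium and sodium channel genes, of median length 105 kb, the share was 15%, below the 17.5% of each eminence list, led by Cacna2d2 (9.21) and Cacna1d (7.20) with 2 each. At the other end stood families that carry the mark without cortex-only peaks, or hardly carry it. All 39 Hox genes, of median length 3.49 kb, had a CTX peak, with a median of 62.6% of gene body and promoter covered. Of them 0 held a cortex-only peak, and 0 an MGE-only, CGE-only or LGE-only peak. Of 119 other developmental transcription factor genes, 10 (8.40%) had one, near the 7.58% of all genes. Of 1093 olfactory receptor genes, of median length 5.99 kb, 5 had a cortex-only peak (0.457%), against 0.183%, 0.183% and 0.0915%. Of 85 ribosomal protein genes, of median length 3.29 kb, 1 had one (1.18%), against 2.35%, 2.35% and 3.53%.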

How the data were processed

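H3K27me3 CUT&Tag was analysed in 11 samples of 4 regions, grouped by their labels. Per the submitters' processing notes and the study's methods, the authors aligned reads to GRCm38 (mm10) with Bowtie2, removed duplicates with Picard, merged the samples of a region with SAMtools and called broad peaks with MACS. deepTools is also named. The version of MACS, its control and its threshold are not given in the sources used here. The deposited lists give each peak's position, a score (not used), its fold enrichment, and its q-value as −log10, with a p-value column that was not used. The number and weakness of the peaks called can rise with sequencing depth, and merging gives each sample the weight of its reads.

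Overlaps, distances and sequence features were computed with Python 3.11.15, numpy 2.4.6 and pandas 2.3.3 on 20 chromosomes, leaving out 11 mitochondrial peaks of the 4 lists. The interval functions were tested on simulated data. Genes were the 21755 protein-coding genes of GENCODE M21, and a promoter was the 2 kb upstream of the 5′ end. Sequence came from the RefSeq copy of GRCm38. All coordinates count from 1.

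Genes were named by rule: the 10 with most cortex-only peaks, those at or nearest to the 10 widest peaks, the 10 with the strongest peak at the start or promoter, and up to 5 of each gene list by strength. The set, the lists and the rules were chosen with earlier results of these data known. The rows of peaks and the RefSeq spans were added after seeing the data. Some genes that the rules name, and 1 sequence, are not reported here.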

Additional observations from a re-analysis of the deposited data

How the results depend on the processing

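No replicate could be left out, because peaks were called on merged samples. No paired analysis was possible because each region has a single list. The count of cortex-only peaks, 4244, ran from 1035 with a q-value under 0.001 in CTX alone to 5475 when up to 50% overlap was allowed. With a q-value under 0.001 in all lists it was 2064, the share of peaks 2 kb or wider 27.3%, the share touching a promoter 12%, the median gap 34.5 kb and the genes with 2 or more peaks 145. With that limit in CTX alone, these were 25%, 6.67%, 22.4 kb and 72, and 54.2% of peaks were intergenic. With lists of equal covered bases the count was 1671, and the other values 23.6%, 8.56%, 25.2 kb, 120 and 51.9%. Allowing under 50% overlap gave 16.4% wide, 11.3% at promoters and 8.27 kb; joining peaks less than 3 kb apart gave 14.3%, 11.4% and 20.6 kb. With lists limited to an equal number of strong peaks, 15.1% were wide and the gap was 20.1 kb. Requiring 3 kb to other lists gave 26.3 kb. Without MGE, 11.6% touched a promoter and the gap was 19 kb, without CGE the gap was 18.9 kb, and without LGE 11.4% were wide, 11.3% touched a promoter and the gap was 20.6 kb. Promoters of 2 kb either side gave 15%, and those of any transcript 14.5%. In all of these the share of peaks touching a promoter stayed at or below 15%. The cause of each shift was not tested. With the RefSeq span in place of GENCODE, which was chosen after seeing the data, Fgfr2 fell from 13 to 0 peaks. Peak lists alone cannot tell an absent mark from one below the caller's threshold, and the median −log10 q of cortex-only peaks was 1.95 against a lowest of 1.01.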

Other observations

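Cortex-only peaks made up a similar part of the CTX list on most chromosomes, from 17.5% on chromosome 19 to 28.8% on chromosome 3. Their density ran from 0.801 per Mb on chromosome X to 2.48 per Mb on chromosome 11, and chromosome X had 137 of them among 522 CTX peaks. Of the 728 genes that carried cortex-only peaks and no eminence peak, all but 29 held a single such peak. A single peak was also usual among all 1649 genes with cortex-only peaks, of which 309 held 2 or more. The share of all genes free of eminence peaks was not counted. Of the 728, those with 3 or more were Hdx, a homeobox gene of the X chromosome, with 4, and Sik3, a salt-inducible kinase, and Fam50b with 3 each. Nox3, an NADPH oxidase of the inner ear, held 2 with the strongest at −log10 q of 11.8, and Krtap3-3, a keratin-associated protein, lay wholly under a cortex-only peak of 4355 bases. These genes were picked after their values were seen.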
